A study of Mus musculus with 14 samples.

Results

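The 10 immediate early genes *Fos*, *Fosb*, *Junb*, *Egr1*, *Egr2*, *Arc*, *Npas4*, *Nr4a1*, *Ier2* and *Dusp1* were selected by symbol from the expression table, and all 10 were listed among its 46904 genes. RNA was sequenced from brain hemispheres of mice on a C57BL/6J background, aged 12 weeks, 48 h after transient occlusion of the middle cerebral artery (MCAO) for 20 min. The ischemic hemisphere (MCAO) was compared with the contralateral hemisphere (CL), in wild-type mice (Cort+/+) and in mice deficient in the gene of the neuropeptide cortistatin (Cort-/-). There were 3 Cort+/+ CL libraries, 3 Cort+/+ MCAO libraries, 3 Cort-/- CL libraries and 5 Cort-/- MCAO libraries, 14 in all. All mice had undergone surgery, so CL tissue came from operated animals and is no sham control, and the labels do not say which hemispheres came from the same mouse. Libraries are named by group and replicate number, and the Cort+/+ MCAO libraries carry the numbers 2, 3 and 4. The protocol names 5 MCAO replicates per genotype, and the remaining Cort+/+ MCAO replicates were not analysed here, so the spread in that group rests on those 3.

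Immediate early genes are transcribed within minutes of synaptic activity, growth factors or stress, without the need for new protein, and their mRNAs are short-lived. Calcium entry and kinase cascades act on factors already bound at their promoters, such as serum response factor at CArG boxes and CREB at cAMP response elements (CREs). In the forebrain they serve as a record of recent neuronal activity, and ischemia itself induces several of them in its first hours. *Fos*, *Fosb* and *Junb* encode subunits of the AP-1 transcription factor, *Egr1* and *Egr2* zinc finger factors, *Nr4a1* an orphan nuclear receptor and *Npas4* a neuronal factor that responds to calcium entry. *Arc* encodes a synaptic protein that acts on AMPA receptor trafficking, *Dusp1* a phosphatase that turns off MAP kinases, and *Ier2* a small nuclear protein.

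The promoters of these genes differ in such sites. The 500 bases before the start of the canonical transcript (GENCODE M39, GRCm39) were searched on both strands, in the 10 genes and in 21770 protein-coding genes. A CArG box was present in 3 of the 10 genes (*Fos*, *Fosb* and *Egr2*) and in 2.76% of all promoters, and a full CRE (TGACGTCA) in *Dusp1* and *Ier2* and in 1.96% of all promoters. The core CRE motif TGACG, which is contained in the full CRE, was found in 8 of the 10 genes and in 25.8% of all promoters. The AP-1 site TGACTCA (7.57% of all promoters) and the EGR site GCGTGGGCG (0.730%) were in none of the 10. Stretches of 100 bases are shown that hold the CArG boxes or full CREs of 5 of these genes, and the 100 bases before the starts of *Arc* and *Npas4*, the genes of the set without a match to any motif searched. Each is printed 5′ to 3′ along the gene's strand, and capitals mark matches to the CArG box, the CRE or its core (either strand).
Fos: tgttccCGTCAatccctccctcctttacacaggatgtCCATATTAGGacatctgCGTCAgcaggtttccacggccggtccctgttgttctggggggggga
Fosb: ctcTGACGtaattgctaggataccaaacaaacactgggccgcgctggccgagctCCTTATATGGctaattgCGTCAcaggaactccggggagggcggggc
Egr2: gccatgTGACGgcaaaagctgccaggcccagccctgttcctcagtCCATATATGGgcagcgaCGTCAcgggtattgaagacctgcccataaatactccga
Dusp1: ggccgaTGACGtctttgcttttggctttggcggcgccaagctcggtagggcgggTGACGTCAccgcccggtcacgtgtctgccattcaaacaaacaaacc
Ier2: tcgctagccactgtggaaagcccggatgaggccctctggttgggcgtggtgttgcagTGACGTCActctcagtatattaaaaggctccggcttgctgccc
Arc: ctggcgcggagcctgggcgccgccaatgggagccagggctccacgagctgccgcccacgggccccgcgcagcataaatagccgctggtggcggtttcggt
Npas4: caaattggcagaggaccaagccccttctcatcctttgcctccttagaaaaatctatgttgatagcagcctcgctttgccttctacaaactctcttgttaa
On GRCm39 the stretches lie at chr12:85520318-85520417 (*Fos*, plus strand), chr7:19044197-19044296 (*Fosb*, minus strand), chr10:67373582-67373681 (*Egr2*, plus strand), chr17:26727544-26727643 (*Dusp1*, minus strand), chr8:85389484-85389583 (*Ier2*, minus strand), chr15:74544420-74544519 (*Arc*, minus strand) and chr19:5040345-5040444 (*Npas4*, minus strand). All are upstream of the start of the canonical transcript, and the *Ier2*, *Arc* and *Npas4* stretches end at the base before it. The *Egr2* and *Dusp1* stretches lie inside the annotated span of their gene, which reaches further upstream. The CArG box of *Fos* spans bases 303 to 294 before the start, that of *Fosb* bases 266 to 257, and the one of *Egr2* shown here bases 65 to 56, with a second further upstream at bases 368 to 359. A match describes letters only, and binding was not measured.

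Each library held 25991115 to 43034552 reads on genes. *Cort*, the deleted gene, held 64 to 139 reads in the Cort+/+ libraries and 0 to 4 in the Cort-/- libraries. Neuronal markers were present in every library, with summed levels of 1882 to 2528 RPKM (reads per length of gene and size of library) over 8 genes. The 22 mitochondrial tRNA genes summed to 13652 to 20623 RPKM in Cort+/+ CL 2, CL 3, MCAO 2 and MCAO 4, and to 2400.0 to 5138 RPKM in the other 10 libraries. In bulk tissue, fewer cells of a type and less RNA per cell cannot be told apart.

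All 10 genes were well detected at 48 h, with *Ier2* at 115 reads or more and *Egr2* at 33 reads or more in every library. Over all libraries, mean levels per gene length were highest for *Arc* (39.8 RPKM), *Egr1* (38.5), *Junb* (27.1) and *Nr4a1* (23.0). *Dusp1* (11.1 RPKM) and *Fos* (9.33) followed, and *Npas4* (4.61), *Ier2* (4.14), *Fosb* (2.999) and *Egr2* (1.10) were lowest. Within each group, the range of *Arc* overlapped those of *Egr1*, *Junb* and *Nr4a1*. The ranges of *Junb* and *Nr4a1*, of *Dusp1* and *Fos*, and of *Npas4* and *Ier2* also overlapped in each group. The order within all these pairs is therefore not resolved, and further pairs, such as *Egr1* and *Junb*, overlapped in some groups.

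None of the 10 genes differed between ischemic and contralateral hemispheres, in either genotype, by more than the spread between libraries. With limma, 0 of 10 had an adjusted p under 0.05 in Cort+/+ mice, where 0.0108% of the 46102 genes tested were called, and 0 of 10 in Cort-/- mice, where 1.72% were called. Nor did any pass an unadjusted p of 0.05, which 7.87% of genes did in Cort+/+ and 12.7% in Cort-/- mice. The same counts of 0 were obtained with limma voom on the recovered reads, which called 0.124% and 2.81% of genes. In no member were MCAO and CL libraries fully separated, while 9.84% of genes in Cort+/+ and 9.11% in Cort-/- mice were. The median log2 fold change of the 10 was 0.05 in Cort+/+ and −0.12 in Cort-/- mice, against −0.02 and −0.03 over the 15063 genes that averaged 1 RPKM or more. All p-values are two-sided and measure the spread between libraries.

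**Figure D1:**
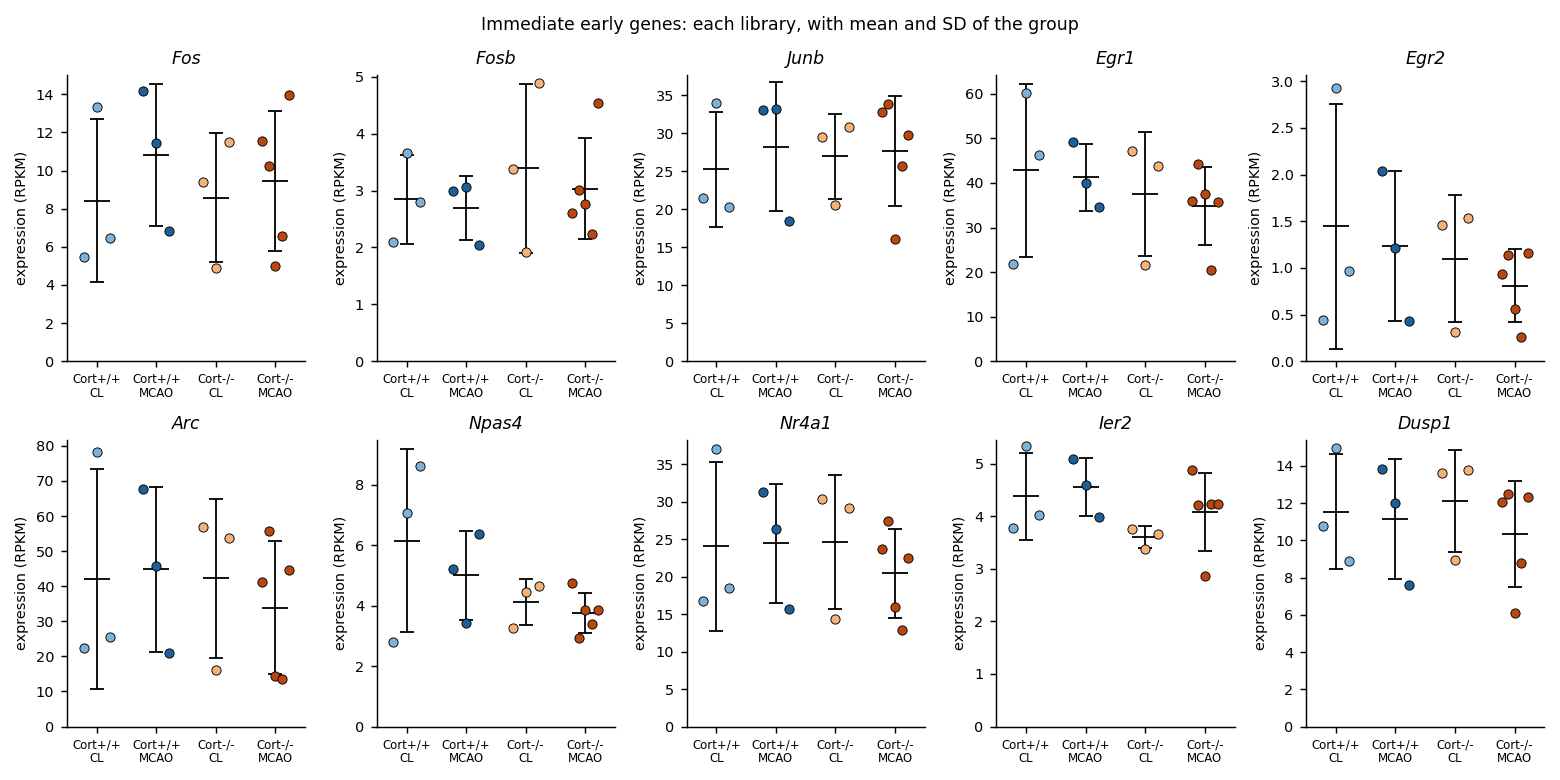
Expression (RPKM, linear axis from 0) of the 10 immediate early genes in each of the 14 libraries by group, with horizontal lines for the group mean and bars for the SD (n = 3, 3, 3 and 5). The groups overlap in every gene for MCAO against CL, and *Arc* and *Egr2* show the widest scatter within groups.

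*Fos*, on chromosome 12 (85520658 to 85524047), held 5.48, 13.3 and 6.45 RPKM in Cort+/+ CL libraries 1, 2 and 3, and 14.2, 11.4 and 6.82 RPKM in MCAO libraries 2, 3 and 4. In Cort-/- mice it held 9.40, 4.86 and 11.5 RPKM in CL libraries 1 to 3 and 11.6, 10.2, 4.97, 6.58 and 13.9 RPKM in MCAO libraries 1 to 5. Every group held libraries near 5 to 7 RPKM as well as libraries above 11 RPKM, so the groups overlapped throughout. The log2 fold change of MCAO against CL was 0.40 (95% interval −0.55 to 1.36) in Cort+/+ and 0.13 (95% interval −0.73 to 0.99) in Cort-/- mice, so that neither no change nor a 2-fold rise was outside the interval in Cort+/+ mice.

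The partner subunits *Fosb*, on chromosome 7 (19036621 to 19043976), and *Junb*, on chromosome 8 (85701113 to 85705359), varied less. In Cort+/+ mice *Fosb* measured 2.85 ± 0.783 RPKM (SD, n = 3) contralaterally and 2.70 ± 0.564 RPKM (SD, n = 3) after MCAO, and 3.39 ± 1.49 RPKM (SD, n = 3) and 3.03 ± 0.890 RPKM (SD, n = 5) in Cort-/- mice. *Junb* measured 25.3 ± 7.54 RPKM (SD, n = 3) and 28.2 ± 8.48 RPKM (SD, n = 3) in Cort+/+ mice, and 26.95 ± 5.61 RPKM (SD, n = 3) and 27.7 ± 7.19 RPKM (SD, n = 5) in Cort-/- mice. For both genes the ranges of all 4 groups overlapped. The log2 fold change of *Junb* was 0.15 (95% interval −0.51 to 0.80) in Cort+/+ and 0.01 (95% interval −0.57 to 0.60) in Cort-/- mice. That of *Fosb* was −0.06 (95% interval −0.75 to 0.63) and −0.10 (95% interval −0.72 to 0.52).

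*Egr1* (Zif268), a widely used marker of neuronal activity, held 21.9, 60.2 and 46.4 RPKM in Cort+/+ CL and 49.2, 39.9 and 34.6 RPKM in MCAO libraries. Cort-/- mice had 47.3, 21.6 and 43.9 RPKM in CL and 35.96, 44.2, 37.6, 20.4 and 35.7 RPKM in MCAO libraries. In 3 of the 4 groups 1 library stood at 20.4 to 21.9 RPKM, well below its companions, and the Cort+/+ MCAO group alone lacked such a library. *Egr2* (Krox20), on chromosome 10 (67371305 to 67378018), was the lowest of the 10 and had the widest relative range, 0.441, 2.93 and 0.967 RPKM in Cort+/+ CL and 2.04, 1.21 and 0.436 RPKM in MCAO libraries. Cort-/- mice had 1.46, 0.311 and 1.53 RPKM in CL and 0.938, 1.14, 0.558, 0.256 and 1.15 RPKM in MCAO libraries, a span of 11.5-fold over the 14 libraries. Fold changes between hemispheres on the log2 scale were 0.05 (95% interval −0.77 to 0.87) and −0.08 (95% interval −0.81 to 0.66) for *Egr1* in Cort+/+ and Cort-/- mice. Those of *Egr2* were −0.07 (95% interval −1.65 to 1.51) and −0.30 (95% interval −1.71 to 1.11), intervals wide enough to hold a 2-fold change in either direction.

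*Nr4a1* (Nur77), on chromosome 15 (101151980 to 101172681), held 16.7, 37.04 and 18.5 RPKM in Cort+/+ CL and 31.3, 26.3 and 15.7 RPKM in MCAO libraries. Without cortistatin the values were 30.4, 14.3 and 29.1 RPKM in CL and 23.7, 27.4, 15.9, 12.9 and 22.5 RPKM in MCAO libraries. Each group had at least 1 library under 17 RPKM and at least 1 above 27 RPKM. The log2 fold change was 0.06 (95% interval −0.77 to 0.89) in Cort+/+ and −0.24 (95% interval −0.98 to 0.51) in Cort-/- mice.

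*Arc*, on chromosome 15 (74540932 to 74544419), is the effector of the set and acts at the synapse itself. It held 22.4, 78.3 and 25.6 RPKM in Cort+/+ CL and 67.7, 45.9 and 20.8 RPKM in MCAO libraries, and 56.9, 16.02 and 53.8 RPKM in Cort-/- CL and 41.3, 55.7, 14.4, 13.6 and 44.6 RPKM in MCAO libraries. No library held a value between 25.6 and 41.3 RPKM, and all 4 groups had libraries on both sides of this gap. The log2 fold change of MCAO against CL was 0.18 (95% interval −1.32 to 1.67) in Cort+/+ and −0.34 (95% interval −1.68 to 1.00) in Cort-/- mice, with opposite signs and intervals that overlap widely.

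*Dusp1*, on chromosome 17 (26724564 to 26781102), measured 11.5 ± 3.09 RPKM (SD, n = 3) contralaterally and 11.1 ± 3.22 RPKM (SD, n = 3) after MCAO in Cort+/+ mice, and 12.1 ± 2.73 RPKM (SD, n = 3) and 10.3 ± 2.83 RPKM (SD, n = 5) in Cort-/- mice. *Ier2*, on chromosome 8 (85387960 to 85389483), varied least of the 10, with 3.78, 5.33 and 4.03 RPKM in Cort+/+ CL and 5.09, 4.60 and 3.98 RPKM in MCAO libraries, and 3.77, 3.37 and 3.67 RPKM in Cort-/- CL and 4.88, 4.21, 2.86, 4.23 and 4.23 RPKM in MCAO libraries. The log2 fold change was −0.06 (95% interval −0.71 to 0.59) and −0.25 (95% interval −0.83 to 0.33) for *Dusp1* in Cort+/+ and Cort-/- mice. For *Ier2* it was 0.07 (95% interval −0.31 to 0.44) and 0.16 (95% interval −0.18 to 0.49), the narrowest intervals of the set. In both genotypes the 95% interval lay within a 2-fold change up or down for 7 of the 10 genes, and *Fos*, *Egr2* and *Arc* were the exceptions.

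*Npas4*, on chromosome 19 (5034382 to 5040344), held 2.78, 7.07 and 8.60 RPKM in Cort+/+ CL and 5.20, 3.43 and 6.38 RPKM in MCAO libraries. Cort-/- mice had 3.25, 4.45 and 4.66 RPKM in CL and 4.75, 2.94, 3.84, 3.39 and 3.85 RPKM in MCAO libraries. The 4 highest values, all above 5 RPKM, came from Cort+/+ libraries, and its lowest value came from that genotype too. The log2 fold change between hemispheres was −0.19 (95% interval −0.93 to 0.55) in Cort+/+ and −0.13 (95% interval −0.79 to 0.53) in Cort-/- mice.

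No difference between genotypes beyond the spread between libraries was detected in these genes, in either hemisphere. In CL hemispheres 0 of 10 genes were called between genotypes (0.0152% of all genes were called), and in MCAO hemispheres 0 of 10 (0.0174%). Limma voom also called 0 of 10 in both (0.0325% and 0.026% of all genes), and no member passed an unadjusted p of 0.05 by either tool, against 3.91% and 3.82% of all genes with limma. The 2 members with the lowest p when both hemispheres were averaged were *Ier2* and *Npas4*. *Ier2* had a log2 difference of Cort-/- against Cort+/+ of −0.21 (95% interval −0.46 to 0.03) with an unadjusted limma p of 0.0845, and *Npas4* one of −0.41 (95% interval −0.91 to 0.09) with an unadjusted limma p of 0.101. In CL hemispheres *Ier2* was lower in all 3 Cort-/- libraries (3.37 to 3.77 RPKM) than in all 3 Cort+/+ libraries (3.78 to 5.33 RPKM), by a margin between the nearest libraries that is small beside the range within either group. It was the only member whose genotypes did not overlap in a hemisphere (1 of 10 in CL, against 6.25% of all genes, and 0 of 10 in MCAO, against 2.42%), and its difference in CL was −0.26 (95% interval −0.63 to 0.11) on the log2 scale.

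Averaged over both genotypes, the response to MCAO was not called for any of the 10 (0 of 10, against 3.43% of all genes), nor was the difference between genotypes averaged over hemispheres (0 of 10, against 0.0672%). An interaction, whether genotype altered the MCAO response, was called for 0 of 10 members and for 0.00217% of all genes. In these 3 comparisons too, no member passed an unadjusted p of 0.05 with limma or limma voom, while limma gave 14.9%, 4.5% and 3.31% of all genes at this p and limma voom called 4.65%, 0.0629% and 0.0% of them after adjustment. The largest interaction in size was that of *Arc*, −0.52 (95% interval −2.53 to 1.50) on the log2 scale, an interval that spans more than a 2-fold difference in both directions. The interval of the interaction lay within 2-fold up or down for 2 of the 10 genes, *Fosb* and *Ier2*.

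**Figure D2:**
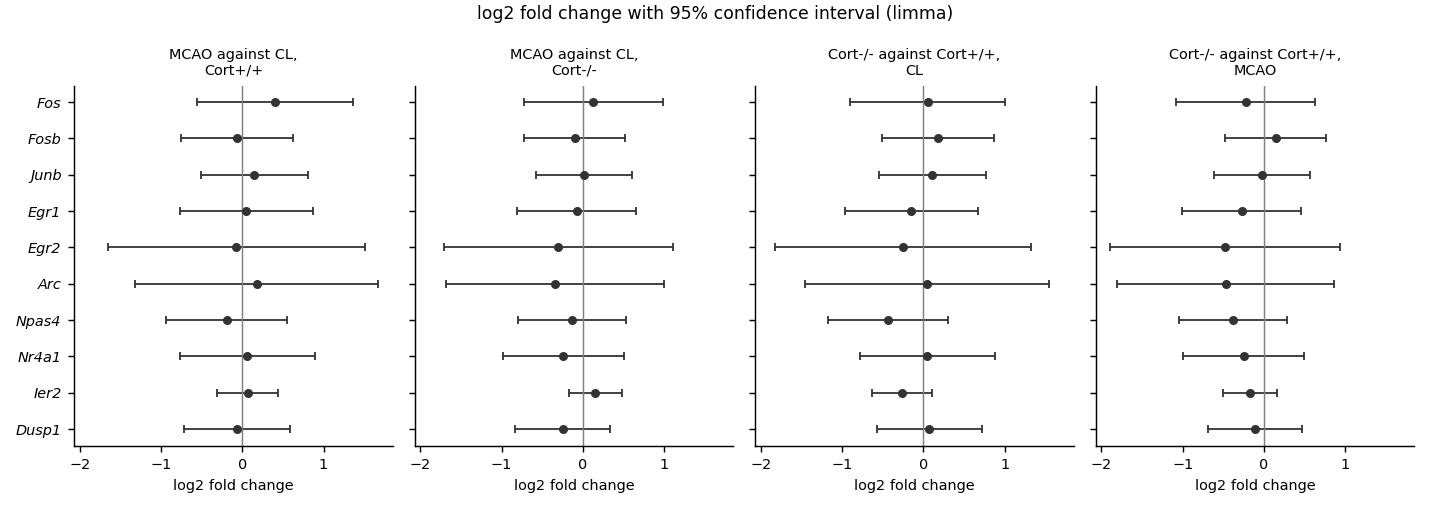
Log2 fold changes (points) with 95% confidence intervals (bars) from limma for the 10 genes in 4 comparisons, MCAO against CL in each genotype and Cort-/- against Cort+/+ in each hemisphere. All intervals include 0, and those of *Arc* and *Egr2* are the widest.

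Libraries of the same group differed widely in most of these genes. The SD between libraries of 1 group on the log2(RPKM + 0.1) scale was 1.01 for *Egr2* and 0.96 for *Arc*, above 99.3% and 99.2% of the 15063 genes that averaged 1 RPKM or more. It was 0.61 for *Fos*, 0.53 for *Nr4a1*, 0.52 for *Egr1* and 0.47 for *Npas4*, and 0.44 for *Fosb*, 0.42 for *Junb* and 0.42 for *Dusp1*. Each of these 9 genes was above at least 93.6% of genes, and *Ier2*, with 0.23, was above 82.7%. The median gene had an SD of 0.12. Group membership accounted for 2.19% (*Junb*) to 7.23% (*Fos*) of the variance of 8 members, for 23.8% in *Npas4* and 25.8% in *Ier2*, against a median of 27.9% over the 15063 genes. With so few libraries per group a sizeable share arises without any group difference, so these shares do not by themselves show an effect of group. Reads per library ranged from 1167 to 8281 in *Arc* and from 33 to 323 in *Egr2*.

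**Figure D3:**
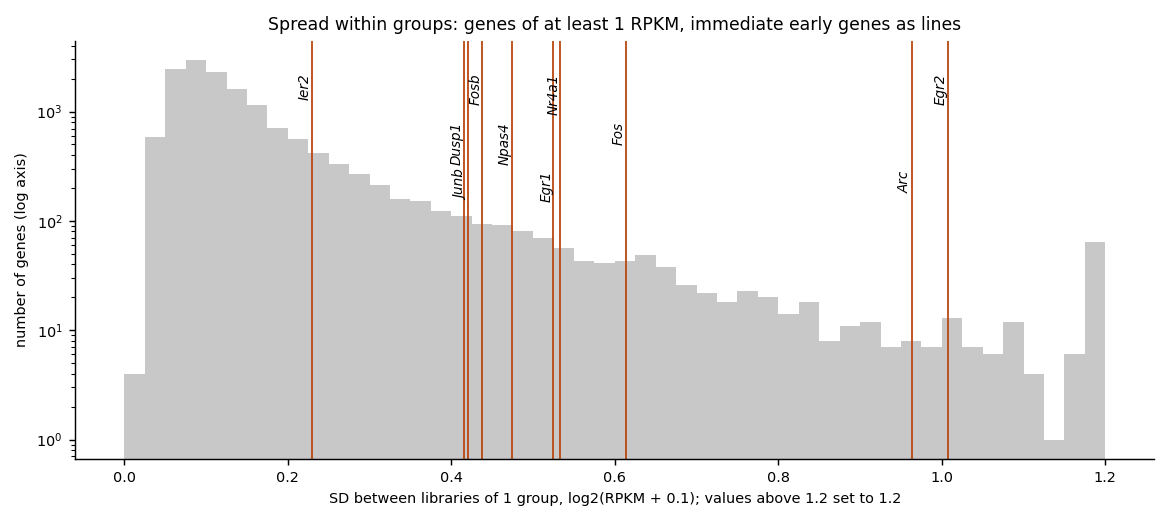
Histogram of the SD between libraries of 1 group (log2 scale, x axis; number of genes on a log y axis) for the 15063 genes averaging 1 RPKM or more, with vertical lines for the 10 immediate early genes. The bulk of genes lies near the median of 0.12, and *Arc* (0.96) and *Egr2* (1.01) lie far to the right.

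The same libraries were low in several of the genes. The 6 libraries below the gap in *Arc*, namely Cort-/- MCAO 4, Cort-/- MCAO 3, Cort-/- CL 2, Cort+/+ MCAO 4, Cort+/+ CL 1 and Cort+/+ CL 3, were also the 6 lowest in *Fos*, *Junb*, *Nr4a1* and *Dusp1*. In *Fos* the highest of the 6 held 6.82 RPKM and the lowest of the other 8 libraries 9.40 RPKM. The corresponding values were 25.7 and 29.6 RPKM in *Junb*, 18.5 and 22.5 RPKM in *Nr4a1*, and 10.8 and 12.0 RPKM in *Dusp1*. Of the 15063 genes, 97 (0.644%) had these 6 libraries lowest and 55 (0.365%) had them highest. *Arc* defined the 6, and of the other 9 immediate early genes 4 had them lowest. *Fosb* and *Egr2* shared 5 of their 6 lowest libraries with *Arc*, *Egr1* and *Ier2* 4, and *Npas4* 3. The libraries were told apart here by the measured values, so they are described and not tested, and what set them apart was not tested.

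**Figure D4:**
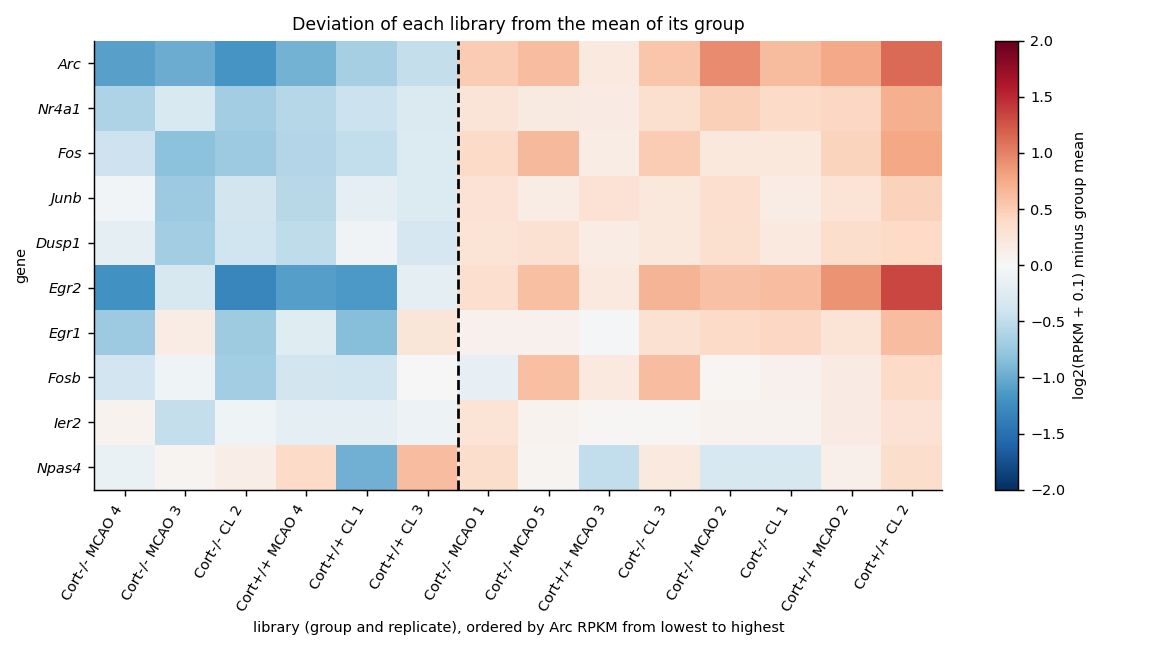
Deviation of each library from the mean of its group (colour, log2 scale, blue below and red above) for the 10 genes (rows) in the 14 libraries (columns, ordered by *Arc* level), with a dashed line at the gap in *Arc*. *Arc*, *Nr4a1*, *Fos*, *Junb* and *Dusp1* are blue in the 6 libraries on the left and red in the 8 on the right, and *Npas4* does not follow this order.

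Reads on genes overlapped between the 6 libraries and the other 8. The 6 libraries had 25991115 to 40643741 reads on genes and the other 8 had 33059089 to 43034552. Among the 6, Cort-/- MCAO 3 (25991115 reads) and Cort+/+ MCAO 4 (31208144 reads) had fewer than any of the other 8. The part of depth in the pattern was not tested. After the group means were subtracted, the sums of the 12 marker lists had correlations with *Arc* between −0.52 (infiltrating leukocytes) and 0.30 (oligodendrocytes), with −0.36 for the 8 neuronal markers and −0.45 for the 7 markers of striatal medium spiny neurons. Given over 14 libraries in 4 groups, these are descriptions without a test. Their part in the pattern was not tested.

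*Arc* was then compared with the other 9 genes on each side of its gap, since a single correlation over both sides would largely reflect the gap. Among the 8 libraries above it, *Arc* correlated with *Egr1* (r = 0.976, exact permutation adjusted p = 0.00134; rho = 0.976, adjusted p = 0.00714) and with *Nr4a1* (r = 0.946, exact permutation adjusted p = 0.00424; rho = 0.952, adjusted p = 0.0103). It also correlated with *Egr2* (r = 0.935, exact permutation adjusted p = 0.00521; rho = 0.810, adjusted p = 0.0980) and *Dusp1* (r = 0.906, exact permutation adjusted p = 0.00692; rho = 0.857, adjusted p = 0.0643), for which the rank correlation did not pass. Without the 2 libraries farthest from the median of *Arc*, r was 0.938 for *Egr1*, 0.869 for *Nr4a1*, 0.817 for *Egr2* and 0.783 for *Dusp1*. With *Fos* the correlation among the same 8 libraries was 0.221, with *Junb* 0.321 and with *Fosb* 0.0734, and none of these passed (exact permutation adjusted p = 0.710, 0.611 and 0.863).

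Among the 6 libraries below the gap no gene passed. The highest correlation there was that of *Nr4a1* (r = 0.842, exact permutation adjusted p = 0.115; rho = 0.829, adjusted p = 0.21), which was 0.535 without the 2 farthest libraries. These 18 tests were two-sided and adjusted together with the Benjamini-Hochberg method, and both hemispheres and both genotypes enter each. Group means were not subtracted in them, and the gap that divides the libraries was noticed in the values of *Arc*. The permutations treat libraries as independent, though some hemispheres may come from the same mouse, so these p-values hold only under that assumption. Above the gap, *Arc* thus varied with *Egr1* and *Nr4a1* by both measures and with *Egr2* and *Dusp1* by Pearson's r alone. No relation with the AP-1 subunits passed there. Over all 14 libraries, with group means subtracted, r with *Arc* was 0.947 for *Fos*, 0.886 for *Junb* and 0.769 for *Fosb*. For *Nr4a1* it was 0.981, for *Egr2* 0.946, for *Dusp1* 0.921 and for *Egr1* 0.779, so *Fos* and *Junb* stood above *Egr1* there. All these values span the gap. Each side holds few libraries and a narrower range of *Arc*, so a correlation that did not pass there does not show that a relation is absent. The difference between the correlations above the gap was not tested.

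*Npas4* shared the fewest of its 6 lowest libraries with *Arc*, and was high in libraries with high mitochondrial tRNA. On either side of the gap its Pearson correlation with *Arc* was higher than that of *Fos*, *Fosb* or *Junb* (r = 0.536 above and 0.537 below). Neither passed (exact permutation adjusted p = 0.445 and 0.603). Below the gap r was −0.0703 for *Npas4* and 0.694 for *Fos* without the 2 farthest libraries, and above it rho of *Npas4* was 0.262. Over all 14 libraries, with group means subtracted, r with *Arc* was 0.0218 for *Npas4* and 0.947 for *Fos*. A closer relation of *Npas4* than of *Fos* to *Arc* is therefore not shown. *Npas4* held 5.20 to 8.60 RPKM in the 4 libraries with high mitochondrial tRNA and 2.78 to 4.75 RPKM in the other 10. Among these 10 libraries, *Npas4* and the summed tRNA level had a Pearson r of 0.772 and a Spearman rho of 0.745, and r was 0.738 without the 2 libraries farthest from the median tRNA level. The tRNA genes were chosen because they were among those most like *Npas4*, so the relation is a description without a test. After subtraction of the group means, over 14 libraries, the correlation of *Npas4* with the tRNA sum was 0.93, with the endothelial markers −0.71 and with the cerebellar markers 0.54. All 4 libraries of high tRNA are Cort+/+. Without them the log2 difference of *Npas4* between genotypes averaged over hemispheres was 0.32 in place of −0.41, but that value rests on 1 Cort+/+ library per hemisphere, CL 1 (2.78 RPKM) and MCAO 3 (3.43 RPKM), and neither value passed the test. The part of the tRNA level in the genotype difference was not tested.

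**Figure D5:**
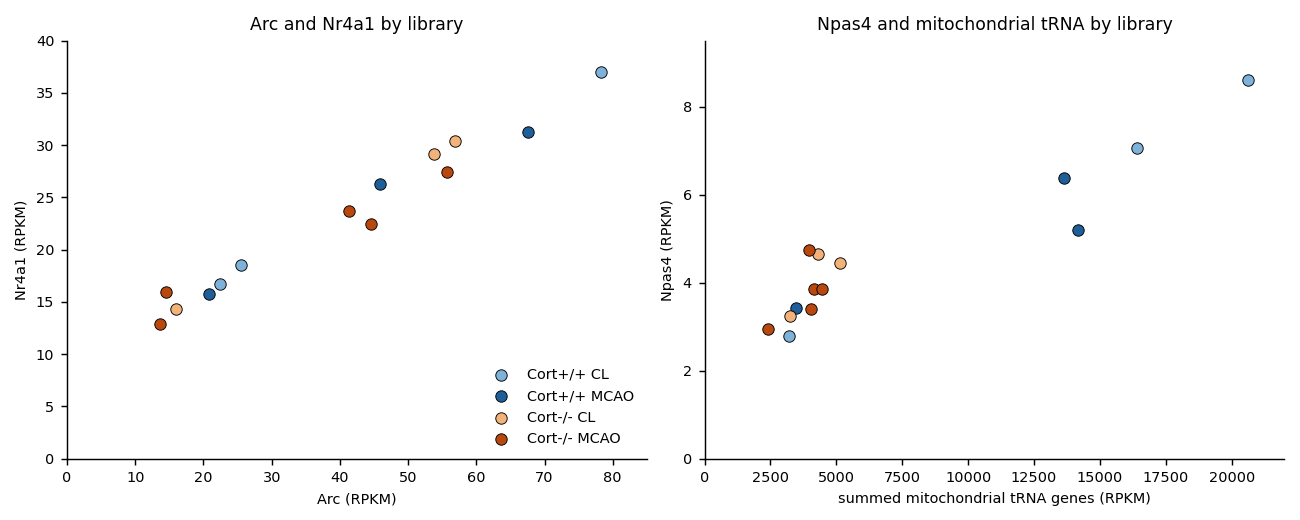
Left, *Nr4a1* against *Arc* (both RPKM) in the 14 libraries, coloured by group. Right, *Npas4* (RPKM) against the summed level of 22 mitochondrial tRNA genes (RPKM). *Nr4a1* and *Arc* are low together in 6 libraries of all 4 groups, and the 4 libraries with more than 10000 RPKM of mitochondrial tRNA, all Cort+/+, hold the 4 highest *Npas4* values.

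The genes outside the set whose deviations from the group means were most like those of *Arc* over the 14 libraries were *Ipmk* (Pearson r = 0.99), an inositol polyphosphate kinase, *Ncbp3* (0.98), a cap-binding protein, *Ccnd2* (0.97), cyclin D2, *Zfp334* (0.96) and *Tdrp* (0.96). For *Fos* they were *Kmt5a* (0.97), a histone H4 methyltransferase, *Stk40* (0.96), *1700016P03Rik* (0.96), *Zfp800* (0.95) and *Ipmk* (0.95). Their ranges were narrower, from 4.89 to 6.13 RPKM in *Ipmk*, 8.27 to 11.9 RPKM in *Ccnd2* and 11.8 to 17.4 RPKM in *Kmt5a*. They are named as the highest of 15053 genes and carry no test.

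A list of 38 other rapidly induced genes was examined in the same way. Of the 36 that averaged 1 RPKM or more, 13 (36.1%) had a correlation of at least 0.7 with *Arc* after subtraction of the group means, against 934 of 15053 genes (6.20%). They included *Klf10* (0.92), *Dusp6* (0.90), *Btg2* (0.88), *Ier5* (0.87), *Fosl2* (0.87), *Sik1* (0.86), *Egr4* (0.81) and *Nr4a3* (0.77). Of 20 activity-dependent effector genes 2 did so (10%), the receptor gene *Gpr3* (0.82) and the kinase gene *Plk3* (0.83). Of 23 upstream regulators 1 did (4.35%), *Srf* (0.72), which encodes serum response factor. All of these correlations span both sides of the gap in *Arc* and carry no test, and the genes are named after their values were seen.

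Of these other rapid genes some did respond to ischemia. In Cort-/- mice 2 of 38 rose (1.72% of all genes were called in either direction) and none fell. *Fosl1*, the gene of the AP-1 subunit Fra-1, held 0.0311 to 0.145 RPKM in CL and 0.670 to 2.16 RPKM in MCAO libraries, a log2 fold change of 2.80 ± 0.48 (SE, adjusted p = 0.0168). *Atf3*, a stress-induced factor of the ATF family, held 0.358 to 0.391 RPKM in CL and 1.34 to 3.65 RPKM in MCAO libraries, a log2 fold change of 2.31 ± 0.40 (SE, adjusted p = 0.0169). In Cort+/+ mice 0 of 38 passed with limma or limma voom (0.0108% and 0.124% of all genes were called). At an unadjusted p under 0.05 there were 3 with limma, against 7.87% of all genes, and 4 with limma voom. Those of lowest p among genes averaging 1 RPKM or more, which leaves out *Fosl1* (mean 0.662 RPKM), were *Atf3*, *Myc* and *Gadd45b*. They had log2 fold changes of 1.70 ± 0.45 (SE, adjusted p = 0.275), 0.53 ± 0.23 (SE, adjusted p = 0.585) and 0.45 ± 0.24 (SE, adjusted p = 0.731). Averaged over genotypes 3 of 38 rose (3.43% of all genes were called in either direction). Their log2 fold changes (± SE) were 2.41 ± 0.36 in *Fosl1* (adjusted p = 0.00389), 2.01 ± 0.30 in *Atf3* (adjusted p = 0.00386) and 0.68 ± 0.15 in *Myc* (adjusted p = 0.0271). Limma gave 11 of 38 under an unadjusted p of 0.05 in Cort-/- mice and 14 averaged over genotypes, against 12.7% and 14.9% of all genes. The interaction was called for none of the 38, with limma or limma voom (0 at an unadjusted p under 0.05 by both). None was called in Cort-/- mice without CL 1 or CL 3 or in a fit of the 8 Cort-/- libraries alone, and 1 without CL 2, and averaged over genotypes 5 were called without Cort+/+ MCAO 4. Over all genes these fits called 133, 149, 86, 322 and 1802, in the same order. *Fosl1* had only 2 to 9 reads in the Cort-/- CL libraries and 33 to 168 reads in the MCAO libraries.

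The activity-dependent effectors, among them *Bdnf*, *Nptx2* and *Vgf*, were not called in any comparison (0 of 21 with limma and limma voom). At an unadjusted p under 0.05, limma gave 7.87%, 12.7% and 14.9% of all genes for MCAO against CL in Cort+/+, in Cort-/- and averaged over genotypes. Of the 21 effectors, limma gave 0, 0 and 1 and limma voom 1, 0 and 3 at this p. The genes of lowest p averaged over genotypes, with their log2 fold changes (± SE), were *Rgs2* (0.11 ± 0.05, adjusted p = 0.335), *Nptx2* (0.28 ± 0.13, adjusted p = 0.343) and *Bdnf* (0.25 ± 0.13, adjusted p = 0.434). In Cort+/+ mice they were *Nefm* (−0.23 ± 0.12, adjusted p = 0.714), *Nptx1* (−0.12 ± 0.09, adjusted p = 0.868) and *Nptx2* (0.26 ± 0.19, adjusted p = 0.882), and in Cort-/- mice *Rgs2* (0.14 ± 0.07, adjusted p = 0.440), *Acvr1c* (−0.22 ± 0.13, adjusted p = 0.542) and *Nptx2* (0.29 ± 0.17, adjusted p = 0.544).

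Of the 23 regulators upstream of immediate early genes, 3 fell in Cort-/- mice and none rose (1.72% of all genes were called in either direction). Their log2 fold changes are given with the SE, and they were *Ppp3ca*, the catalytic subunit of calcineurin (−0.39 ± 0.08, adjusted p = 0.0266), *Camk2a*, a calcium-dependent kinase subunit (−0.29 ± 0.07, adjusted p = 0.0470), and *Crtc1*, a coactivator of CREB (−0.21 ± 0.04, adjusted p = 0.0366). In Cort+/+ mice limma called 0 of 23 and limma voom 1 (0.0108% and 0.124% of all genes were called). At an unadjusted p under 0.05 there were 3 with limma, against 7.87% of all genes, and 6 with limma voom. Values with limma were −0.38 ± 0.09 (SE, adjusted p = 0.212) for *Ppp3ca*, −0.21 ± 0.07 (SE, adjusted p = 0.415) for *Camk2a* and −0.35 ± 0.14 (SE, adjusted p = 0.542) for *Rps6ka5*. Averaged over genotypes 5 of 23 fell and none rose, while 3.43% of all genes were called in either direction. The 5 were *Ppp3ca* (−0.39 ± 0.06, adjusted p = 0.00405), *Camk2a* (−0.25 ± 0.05, adjusted p = 0.0138), *Crtc1* (−0.14 ± 0.03, adjusted p = 0.0406), *Mrtfb* (−0.18 ± 0.04, adjusted p = 0.0432) and *Camk2b* (−0.18 ± 0.05, adjusted p = 0.0491). No regulator was called in Cort-/- mice in a fit of the 8 Cort-/- libraries alone, nor without CL 1, 2 or 3 or MCAO 1, 4 or 5, and 1 was called without Cort-/- MCAO 2 or Cort+/+ MCAO 2. Over all genes, the named fits without a called regulator held 86 to 351 calls in Cort-/- mice, and those with 1 held 605 and 571. Averaged over genotypes, 2 to 4 regulators were called with any 1 library left out, 4 of them without Cort-/- MCAO 1 or MCAO 3. Limma gave 11 of 23 under an unadjusted p of 0.05 in Cort-/- mice and 12 averaged over genotypes, against 12.7% and 14.9% of all genes. The interaction was called for none of the 23 by limma or limma voom (0 and 1 at an unadjusted p under 0.05).

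Summed markers of some cell types also differed between hemispheres, and their relation to these regulators was not computed. The summed level of the 7 medium spiny neuron markers was 257 to 296 RPKM in CL and 133 to 226 RPKM in MCAO libraries of Cort+/+ mice, and 253 to 269 and 105 to 170 RPKM in Cort-/- mice, without overlap in either. The sum of the 6 microglial markers was 90.6 to 99.9 RPKM in CL and 121 to 189.8 RPKM in MCAO libraries of Cort+/+ mice, and 91.3 to 107 RPKM and 138 to 209.6 RPKM in Cort-/- mice. That of the 6 astrocyte markers was 440.5 to 569 and 555 to 765 RPKM in Cort+/+ and 469 to 544 and 582 to 873 RPKM in Cort-/- mice. In Cort-/- mice the 8 neuronal markers summed to 2140 to 2252 RPKM in CL and 1882 to 2051 RPKM in MCAO libraries, and the 5 hippocampal markers to 76.2 to 87.2 and 65.2 to 70.7 RPKM, both without overlap. In Cort+/+ mice these sums overlapped, with 2101 to 2528 and 1895 to 2179 RPKM for the neuronal and 71.5 to 77.4 and 69.8 to 73.0 RPKM for the hippocampal list. The 7 cortical excitatory markers overlapped in both genotypes, at 135.4 to 163.6 and 119 to 135.5 RPKM in Cort+/+ and 135.1 to 144 and 118 to 138 RPKM in Cort-/- mice. Over all 14 libraries the other lists, which overlapped between hemispheres in both genotypes, summed to 49.96 to 64.1 RPKM (thalamus), 7.19 to 9.96 (cerebellum), 290.3 to 493 (choroid plexus), 2.42 to 14.7 (infiltrating leukocytes), 54.5 to 83.7 (endothelium) and 791 to 1049 RPKM (oligodendrocytes). *Gabra6* of the cerebellar list and *Cd3e* of the leukocyte list were at 0 in at least 1 library. None of the medium spiny neuron, microglial or pan-neuronal markers was at 0 in any library. Their part in the lower levels of *Ppp3ca*, *Camk2a* and *Crtc1* was not tested. The immediate early genes lay in the same libraries without a detectable difference between hemispheres.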

How the data were processed

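RNA-seq libraries (stranded mRNA kit) came from 14 hemispheres. The authors aligned reads to GRCm39 with reanalyzerGSE 3.0.0, counted them on genes (the methods name GENCODE M28) and deposited RPKM values per library, without pooling replicates. Gene lengths and library sizes were searched for until values became whole reads, and 495656 of the 495656 values above 0 did, within 0.01 read, which gave 25991115 to 43034552 reads per library. Genes were kept if 2 or more libraries had a value above 0 (46102 of 46904, all 10 members among them).

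Values of log2(RPKM + 0.1) were fitted with limma 3.58.1 (R 4.3.3), in 1 model of the 4 groups with moderated variances and trend. P-values were adjusted over all genes tested with the Benjamini-Hochberg method, at 0.05. Shares of all genes under an unadjusted p of 0.05 were computed for limma and not for limma voom. Fold changes are on this scale and understate the change of low genes. Correlations were tested by exact permutation (scipy 1.17.1). The scripts were tested on simulated data.

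Of each further list, every called gene was named where up to 6 passed. Where none passed, the 3 of lowest unadjusted p with a mean of at least 1 RPKM were named. Had more than 6 passed, the 6 of largest absolute log2 fold change with such a mean would have been named. For *Fos* and *Arc*, the 5 genes of highest correlation after subtraction of group means were named. Members, lists and tests were chosen with earlier results of these data known, and the gap in *Arc* and the mitochondrial tRNA genes were noticed in the values. Positions come from GENCODE M39, and sequences from the GRCm39 genome, which matches the deposited build. Alternatives were other scalings, filters, a pseudocount of 1, limma voom on recovered reads, the libraries compared alone, a replicate block and left-out libraries.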

Additional observations from a re-analysis of the deposited data

How the results depend on the processing

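Under 24 alternative settings the number of immediate early genes called stayed 0 in each of the 165 counts computed, and at most 1 of the 10 passed an unadjusted p of 0.05. Of 526 recomputed log2 fold changes of members, 479 kept their sign and 47 turned it, all with values that had not passed the test (lowest adjusted p under an alternative 0.312). Their sign for MCAO against CL is therefore not determined by these libraries. The calls over all genes also changed with the setting. For MCAO against CL in Cort-/- mice they ranged from 0 (replicate block) to 1294 (limma voom) of 46102. Where a group is left with 1 library, that library is assumed to vary like the others. Limits are the 3 to 5 libraries per group and the unknown origin of hemispheres from shared mice. The causes of the shifts were not tested.

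With 1 library left out at a time, log2 fold changes of MCAO against CL in Cort+/+ mice ranged from −0.20 to 0.74 in *Arc*, −0.24 to 0.19 in *Dusp1*, −0.37 to 0.36 in *Egr1*, −0.65 to 0.59 in *Egr2*, −0.26 to 0.13 in *Fosb*, −0.031 to 0.21 in *Ier2*, −0.67 to 0.12 in *Npas4* and −0.16 to 0.42 in *Nr4a1*. In Cort-/- mice they ranged from −0.43 to 0.13 in *Egr1*, −0.95 to 0.041 in *Egr2*, −0.23 to 0.38 in *Fos*, −0.45 to 0.20 in *Fosb* and −0.17 to 0.19 in *Junb*. The counts of other rapid genes called ranged from 0 to 3 in Cort-/- mice and from 2 to 5 averaged over genotypes. Those of upstream regulators ranged from 0 to 3 in Cort-/- mice and from 2 to 4 averaged over genotypes. Over all genes, the calls in these fits ranged from 133 (without Cort-/- CL 1) to 1191 (without Cort-/- MCAO 3) in Cort-/- mice. Averaged over genotypes, the calls over all genes ranged from 941 (without Cort+/+ MCAO 3) to 1913 (without Cort-/- MCAO 3).

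A pair of alternatives was chosen after seeing the data. Without Cort+/+ CL 1 and Cort-/- CL 2, the contralateral libraries nearest to ischemic ones in earlier results, log2 fold changes in Cort+/+ mice were −0.37 for *Egr1*, −0.16 for *Arc*, −0.16 for *Nr4a1* and −0.031 for *Ier2*, and in Cort-/- mice −0.23 for *Fos* and −0.17 for *Junb*. Other rapid genes called in Cort-/- mice were then 1, upstream regulators 0, and averaged over genotypes 2 regulators and 1 effector were called. Of all 45096 genes tested there, 280 were called in Cort-/- mice and 1397 averaged over genotypes. Without the 4 libraries of high mitochondrial tRNA, values in Cort+/+ mice were 0.53 for *Fosb*, 1.28 for *Egr2*, 0.29 for *Npas4* and 0.15 for *Dusp1*, and the genotype difference of *Npas4* averaged over hemispheres was 0.32. That fit leaves 1 Cort+/+ library per hemisphere, so counts of genes called are not given for it.

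In a fit of the compared libraries alone, 0 other rapid genes and 0 regulators were called in Cort-/- mice, where 86 of 46102 genes were called. Regulators called were 5 in Cort-/- mice with a filter on mean RPKM of 0.5, 5 (Cort-/-) and 1 (Cort+/+) under limma voom, and 3 averaged over genotypes with quantile normalization. In the same order, the calls over all genes were 1290 of 17476, 1294 and 57 of 46102, and 1573 of 46102. Replicate numbers gave no consistent pairing of the libraries. The deviations of same-numbered libraries had correlations of 0.32 and −0.14 between hemispheres in Cort+/+ and −0.06, −0.24 and 0.03 in Cort-/- mice. Only replicate 2 of Cort+/+ correlated best with its own number. With so few libraries these correlations cannot show whether same-numbered hemispheres came from the same mouse. With a replicate block, members called stayed 0, and other rapid genes and regulators called were 0 in Cort-/- mice and 0 averaged over genotypes. That fit called 0 of all 46102 genes for MCAO against CL in either genotype or averaged over genotypes. Its counts of 0 are therefore not particular to these lists. Its log2 fold changes were −0.25 for *Egr1* and 0.16 for *Dusp1* in Cort+/+ mice and −0.019 for *Junb* and 0.14 for *Egr1* in Cort-/- mice.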

Other observations

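Between genotypes, the other rapid genes also showed no call with limma or limma voom in either hemisphere. Of the 38, *Jund*, an AP-1 subunit gene, had a log2 difference of Cort-/- against Cort+/+ of 0.13 in CL hemispheres (limma, unadjusted p = 0.0462, adjusted p = 1.00), the 1 gene of the list under an unadjusted p of 0.05 there. With limma, 3.91% of all genes were under it in CL hemispheres. In MCAO hemispheres 0 of 38 were under it with limma, against 3.82% of all genes, and 1 with limma voom. *Fosl1* differed there by 1.00 on the log2 scale (limma, unadjusted p = 0.0585, adjusted p = 1.00) and *Ccn1*, a matricellular protein gene, by 0.52 (limma, unadjusted p = 0.0822, adjusted p = 1.00). No library of the 10 genes in the group of 5 Cort-/- MCAO libraries lay far enough from its companions to pass Dixon's test.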
